A study of Homo sapiens with 16 samples.

Results

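The response of the shUHRF1 line to phorbol ester was read from 4 of the 16 RNA-seq libraries of the series. The libraries were chosen by the names of the count columns: 2 were labelled shUHRF1 with PMA (shUHRF1 PMA) and 2 shUHRF1 without a suffix, which are the DMSO controls (shUHRF1 DMSO). All 4 came from THP-1, a human acute monocytic leukemia line with the MLL-AF9 fusion gene, after stable lentiviral transduction with 1 hairpin against UHRF1 and selection in puromycin. The PMA group received PMA (a phorbol ester) at 100 ng/ml for 48 h, and the DMSO group received the solvent for the same time. Where the response was compared with that of control cells, the 2 shNC PMA and 2 shNC DMSO libraries were used. They came from a THP-1 line with a control hairpin (shNC), for which the sources list no sequence. The remaining 8 libraries came from lines with hairpins against other genes; they entered the fit but are not described. As models these groups have limits: 1 hairpin and 1 selected line stood for the knockdown, cells were harvested in bulk, and the sources do not say whether the 2 libraries of a group were grown as separate cultures. P-values therefore measure the spread between these libraries, which may be technical.

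PMA stands in for diacylglycerol, the lipid messenger that recruits protein kinase C and the RAS exchange factors of the RASGRP family to membranes. From there the RAF, MEK and ERK kinases switch on FOS, JUN and EGR genes, and THP-1 cells stop dividing, attach to plastic and take on features of macrophages. UHRF1 binds hemimethylated DNA behind the replication fork and brings in DNMT1, which copies the methyl marks to the new strand.

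Assigned counts were 21286757 and 14873941 in shUHRF1 PMA and 20384066 and 15679327 in shUHRF1 DMSO, within the range of 13883556 to 23151864 over the 16 libraries. In both groups the first replicate was deeper than the second and held more mitochondrial RNA: mitochondrially encoded genes took 9.54% and 3.92% of counts in shUHRF1 PMA, against 26.6% and 9.86% in shUHRF1 DMSO. Levels below are CPM, counts per 1000000 counts of a library after scaling by TMM factors, replicate 1 before replicate 2. Changes are log2 fold changes, PMA over DMSO, ± SE with n = 2 libraries a group. Where libraries are said not to overlap, this only describes the genes named, many of them chosen by adjusted p in this contrast. With 2 libraries a group it also occurs in genes without a change, and its share over all genes is not given. Unlike these levels, the sums of cell type markers and their limit of 1 CPM are per 1000000 total counts, without TMM factors. The 12 macrophage and monocyte markers checked were all at 1 CPM or more on average in both groups. Their summed levels were 4399 and 4228 CPM in shUHRF1 PMA against 987 and 1168 CPM in shUHRF1 DMSO. Of 8 T cell markers, 6 were at 0 in shUHRF1 PMA, CD3D, CD3E and CD3G among them, and the list summed to 17.3 and 20.1 CPM in shUHRF1 PMA against 1.08 and 2.23 CPM in shUHRF1 DMSO. The 5 mast cell and basophil markers summed to 589.8 and 371 CPM in shUHRF1 PMA against 2.26 and 2.36 CPM in shUHRF1 DMSO. Of the 5, 2 were at 1 CPM or more on average in shUHRF1 PMA. CPA3 and MS4A2 were at 0 there, and MS4A2 was called lower after PMA. The part of such genes in the results was not tested.

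UHRF1 (ENSG00000276043, chr19:4903080-4962154, plus strand, hg38) was measured first as the targeted gene. Its level was 9.62 and 12.2 CPM in shUHRF1 PMA, against 72.0 and 91.2 CPM in shUHRF1 DMSO, and fell by 2.90 ± 0.28 (adjusted p = 2.1e-06, edgeR quasi-likelihood test). In the control line it was 4.62 and 7.43 CPM in shNC PMA and 87.1 and 122.6 CPM in shNC DMSO. Both lines thus held less of the transcript after PMA, and the PMA and DMSO libraries did not overlap in either line. Between the lines, UHRF1 was not shown to differ in DMSO (shUHRF1 minus shNC, log2 −0.36, adjusted p = 0.605) or in PMA (log2 0.87, adjusted p = 0.129). With the replicate number as a block, UHRF1 was called higher in shUHRF1 PMA than in shNC PMA (adjusted p = 0.000375, from 0.000375 to 0.615 over 13 alternative settings), while the DMSO libraries did not differ past the threshold in any of the 13 (0.0525 to 0.931). The difference of its PMA response, shUHRF1 minus shNC, was 1.23 ± 0.38 and did not pass (adjusted p = 0.198, from 0.00027 to 0.489 over the other settings, past the threshold with the replicate block and without a filter on low counts). In DMSO the estimate was below 0 in each of the 13 settings (log2 −0.59 to −0.09) without passing, so a lower UHRF1 mRNA in the shUHRF1 libraries was not called. The protein was not measured here. For its knockdown cells the paper shows western blots as a check of the depletion of the target proteins, UHRF1 among them. The name shUHRF1 is used below as the label of the line.

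PMA changed 6696 genes by over 1 on the log2 scale in shUHRF1 cells. Of 60676 genes in the count table, 16503 passed the filter on low counts and were tested. Of these, 3592 (21.8%) rose and 3104 (18.8%) fell by more than 1 at an adjusted p under 0.05, and without the limit on size 4847 (29.4%) were higher and 4207 (25.5%) lower. List members are called below without the limit, so 29.4% and 25.5% are the shares to set beside each list count of the main fit. A change above 3 was seen for 1240 risen and 925 fallen genes, and above 8 for 187 and 23. The median change of all tested genes was −0.01, and 261 of the risen genes had no count in shUHRF1 DMSO while 172 of the fallen genes had none in shUHRF1 PMA. Genes called higher took 46.9% and 50.3% of all counts in shUHRF1 PMA against 8.20% and 12.2% in shUHRF1 DMSO, and genes called lower 3.82% and 3.73% against 15.2% and 16.7%. With mitochondrial genes left out, 3497 rose and 3189 fell.

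With TMM factors more protein-coding genes rose than fell, and more long non-coding RNAs fell than rose. Among 13636 tested protein-coding genes 3145 rose and 2406 fell (23.1% and 17.6%, median 0.09), whereas among 1954 long non-coding RNAs 340 rose and 505 fell (17.4% and 25.8%, median −0.56). The balance depended on the scaling: upper-quartile factors in place of TMM factors moved the median of all genes to −0.31 and gave 2823 higher and 4243 lower genes, with protein-coding genes also falling more often (2451 higher and 3309 lower). With the replicate block 3726 genes rose and 3371 fell with the limit, and 35.4% and 32.5% were called without it. In bulk RNA, a change in how many cells express a gene and a change in the amount per cell cannot be told apart.

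**Figure D1:**
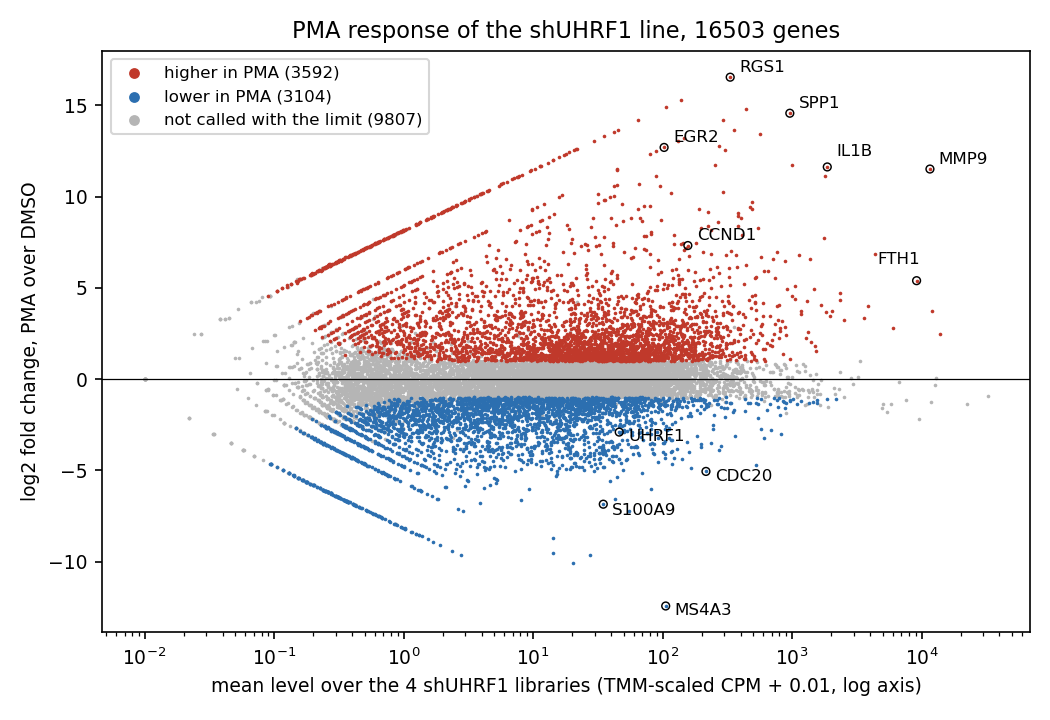
Each point is 1 of 16503 tested genes, with its mean level over the 4 shUHRF1 libraries on the x axis (TMM-scaled CPM plus 0.01, log axis) and its log2 fold change, PMA over DMSO, on the y axis. The 3592 genes called higher and 3104 called lower with the limit of 1 are colored, and the labels mark genes named in the text, from RGS1 at the top to MS4A3 at the bottom.

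The largest rises were in secreted and signaling genes for which the DMSO libraries held almost no counts. RGS1 (ENSG00000090104, chr1:192575763-192580024, plus strand), which shortens G protein signaling, was at 671 and 661 CPM in shUHRF1 PMA and had no count in shUHRF1 DMSO, at least 9262-fold higher when 3 counts over the group are taken as the floor (adjusted p = 3.6e-08). The same held for ANKRD1, a muscle ankyrin-repeat protein, with 309 and 247 CPM in PMA and 0 in DMSO (at least 3901-fold), and for CCL8, a monocyte-attracting chemokine, with 235 and 193 CPM in PMA and 0 in DMSO (at least 3000.5-fold). MMP7 (matrilysin, at least 1852-fold), XIRP1 (an actin-binding protein, at least 1264-fold), RRAD (a RAS-related GTPase, at least 1187-fold), STC1 (a secreted glycoprotein, at least 979-fold) and PTGES (the inducible prostaglandin E synthase, at least 836-fold) likewise had no count in either DMSO library.

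SPP1, the secreted phosphoprotein osteopontin, reached 1987 and 1859 CPM in shUHRF1 PMA against 0 and 0.143 CPM in shUHRF1 DMSO (ratio 26810, counting interval 9173 to 130010, 3 DMSO counts). GDF15, a TGF-beta family stress cytokine, was at 1126 and 646 CPM in PMA against 0.0484 and 0 CPM in DMSO (ratio 37960, counting interval 6812 to 1499400, 1 DMSO count). The chemokine CCL7 (ratio 25087, counting interval 4502 to 990950, 1 DMSO count), TFPI2, a serine protease inhibitor of the matrix (ratio 14938, counting interval 4135 to 123360, 2 DMSO counts), the chitinase CHIT1 of macrophages (ratio 12252, counting interval 2198 to 483970, 1 DMSO count) and DCSTAMP, needed for the fusion of macrophage precursors (ratio 11229, counting interval 2015 to 443590, 1 DMSO count), were also counted almost only in PMA. TM4SF19, a tetraspanin-like membrane protein, completed the 15 largest rises at 1399.5 and 858 CPM in PMA against 0.145 and 0.0476 CPM in DMSO. In all 15 genes both PMA libraries lay above both DMSO libraries, which the choice of these genes required.

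Among genes with counts in every library, MMP9 (ENSG00000100985, chr20:46008908-46016561, plus strand), the gelatinase of migrating macrophages, was at 25705 and 20740 CPM in shUHRF1 PMA against 6.97 and 8.89 CPM in shUHRF1 DMSO (11.51 ± 0.67, adjusted p = 2.0e-08). IL1B (ENSG00000125538, chr2:112829751-112836816, minus strand), which encodes interleukin 1 beta, was at 4162 and 3321 CPM in PMA against 0.871 and 1.47 CPM in DMSO (11.63 ± 0.38, 3.1e-10). Both genes were low in both DMSO libraries and high in both PMA libraries. The ferritin chains FTL (20290 and 26424 CPM in PMA, 3786 and 4674 CPM in DMSO) and FTH1 (16487 and 19301 CPM in PMA, 427 and 424 CPM in DMSO) and the chitinase-like protein CHI3L1 (25524 and 19459 CPM in PMA, 1710.4 and 1674 CPM in DMSO) were, with MMP9, among the 10 genes with the highest CPM after PMA.

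The largest fall was that of MS4A3, a membrane protein of granulocyte and monocyte progenitors (ENSG00000149516, chr11:60056587-60071115, plus strand). It was at 0 and 0.0695 CPM in shUHRF1 PMA against 222 and 201 CPM in shUHRF1 DMSO (DMSO over PMA 6776, counting interval 1216 to 267670, 1 PMA count, adjusted p = 2.5e-09). TRGC2 (0 and 0.0695 CPM in PMA, 50.7 and 31.2 CPM in DMSO) and TRGC1 (0.0566 and 0.0695 CPM in PMA, 31.6 and 25.5 CPM in DMSO), near-identical constant regions of the T cell receptor gamma chain between which reads may be split, were also among the 15 largest falls. S100A8, a calcium-binding protein of phagocytes, was at 0 and 0.139 CPM in PMA against 82.6 and 27.3 CPM in DMSO (DMSO over PMA 877, counting interval 242 to 7242, 2 PMA counts), and its partner S100A9 at 0.679 and 0.487 CPM in PMA against 64.8 and 73.4 CPM in DMSO (−6.85 ± 0.59). Genes with no PMA count among the 15 included ANKRD55 (at least 50.5-fold lower), PDGFD (at least 32.5-fold), SERPINB10 (at least 29.2-fold) and the long non-coding RNA LINC01224 (at least 35.9-fold). The PMA and DMSO libraries did not overlap for any of the 15, again as the choice required.

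**Figure D2:**
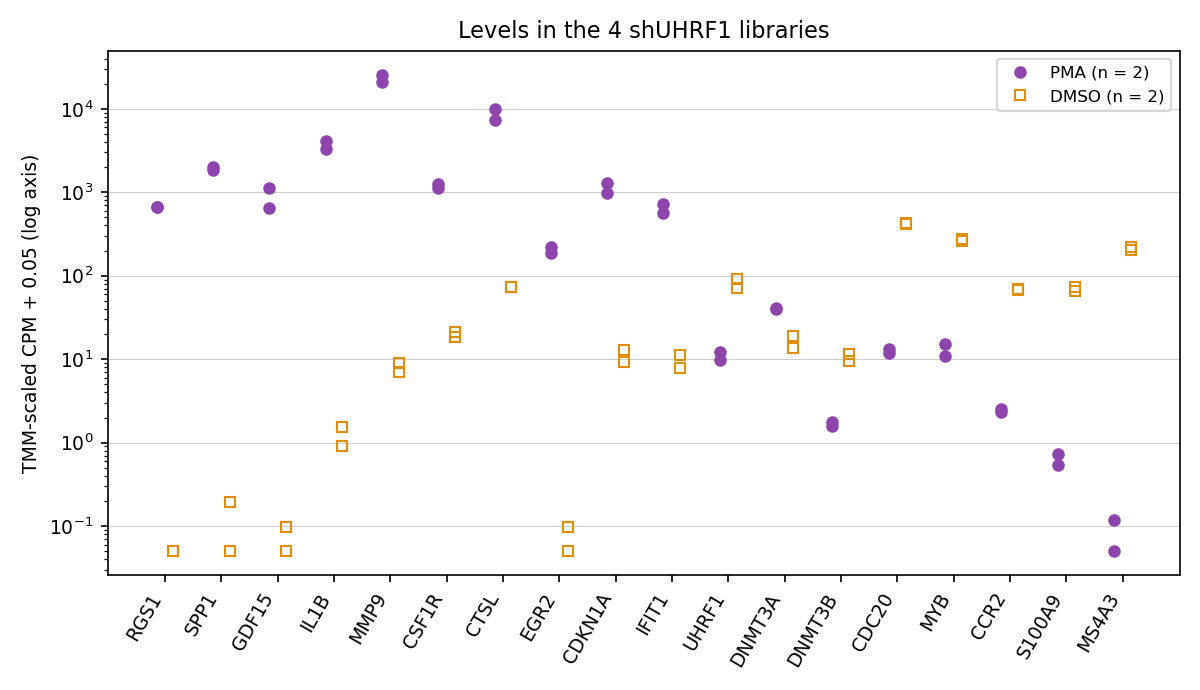
Levels of 18 genes in the 4 shUHRF1 libraries (y axis, TMM-scaled CPM plus 0.05, log axis), with 1 point for each of the 2 PMA and 2 DMSO libraries. From RGS1 to IFIT1 and for DNMT3A both PMA libraries lie above both DMSO libraries, and for UHRF1, DNMT3B and the 5 genes on the right they lie below.

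Promoter sequences of RefSeq (GRCh38.p14) were searched on both strands for 4 short motifs, in the window from 250 bases before to 50 after the transcription start, for the 8447 tested genes with exactly 1 listed start. The motif bound by AP-1, the FOS and JUN dimer (TGACTCA or TGAGTCA), was present in 5.98% of 1756 risen and 2.51% of 1592 fallen promoters, against 3.17% of all tested. The cell cycle homology region (CHR, TTTGAA or TTCAAA), known from promoters of cell cycle genes, was in 9.28% of risen and 14.26% of fallen promoters, against 9.73% of all. CCAAT (or ATTGG) was in 34.74% of risen, 43.34% of fallen and 37.66% of all promoters, and the E2F motif (TTCGCGC or GCGCGAA) in 2.68%, 4.59% and 3.95%. A match is a string of letters and was not tested as a binding site.

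The 250 bases before the start are shown for the 3 of the 15 most risen genes that held an AP-1 match there (of 12 with a listed promoter). They are also shown for 3 of the 25 fallen cell cycle genes with a CHR match there (of 81 with a listed promoter). The genes are MMP7 (chr11:102530748-102530997, minus strand, match 67 bases before the start), XIRP1 (chr3:39192596-39192845, minus, 238 bases), TM4SF19 (chr3:196338389-196338638, minus, 214 bases), CDC20 (chr1:43358731-43358980, plus, matches at 178 and 65 bases), CENPA (chr2:26785806-26786055, plus, 18 bases) and SPC25 (chr2:168890431-168890680, minus, 247 bases). Capitals mark only the motif by which a gene was chosen. Strings of the other motifs, such as the CHR in MMP7, were left in lower case.
MMP7: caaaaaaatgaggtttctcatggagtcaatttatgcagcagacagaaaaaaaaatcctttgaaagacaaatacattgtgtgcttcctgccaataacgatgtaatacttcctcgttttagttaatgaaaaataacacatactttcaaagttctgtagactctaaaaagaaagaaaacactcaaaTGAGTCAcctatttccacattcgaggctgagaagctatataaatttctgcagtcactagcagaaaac
XIRP1: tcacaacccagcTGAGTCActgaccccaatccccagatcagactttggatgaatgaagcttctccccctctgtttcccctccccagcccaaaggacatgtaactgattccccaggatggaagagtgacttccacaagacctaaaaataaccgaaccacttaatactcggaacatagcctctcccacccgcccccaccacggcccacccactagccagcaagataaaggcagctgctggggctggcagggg
TM4SF19: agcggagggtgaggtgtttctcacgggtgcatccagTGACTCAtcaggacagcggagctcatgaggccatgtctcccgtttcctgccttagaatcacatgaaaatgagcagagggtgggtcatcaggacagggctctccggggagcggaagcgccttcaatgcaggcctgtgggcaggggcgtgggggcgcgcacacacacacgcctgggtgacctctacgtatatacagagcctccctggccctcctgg
CDC20: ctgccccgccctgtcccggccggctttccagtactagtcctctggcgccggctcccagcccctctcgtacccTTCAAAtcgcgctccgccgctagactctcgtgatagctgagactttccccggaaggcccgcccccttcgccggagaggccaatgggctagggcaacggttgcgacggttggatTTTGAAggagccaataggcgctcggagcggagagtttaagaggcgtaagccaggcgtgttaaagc
CENPA: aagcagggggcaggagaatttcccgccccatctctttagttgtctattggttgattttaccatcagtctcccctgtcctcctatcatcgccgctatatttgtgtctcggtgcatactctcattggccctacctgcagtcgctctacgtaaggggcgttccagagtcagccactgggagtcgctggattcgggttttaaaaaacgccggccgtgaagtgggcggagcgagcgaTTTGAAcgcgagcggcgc
SPC25: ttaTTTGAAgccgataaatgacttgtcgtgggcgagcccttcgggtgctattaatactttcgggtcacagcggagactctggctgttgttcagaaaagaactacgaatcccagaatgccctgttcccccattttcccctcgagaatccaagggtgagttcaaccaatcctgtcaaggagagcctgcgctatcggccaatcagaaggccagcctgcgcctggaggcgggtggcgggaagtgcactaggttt
The first 3 genes are among the largest rises given above. After PMA, CDC20 fell by 5.06 ± 0.19, CENPA, the centromeric histone, fell by 4.90 ± 0.27, and SPC25, a kinetochore subunit, fell by 4.71 ± 0.36.

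Of 40 tested genes of the PMA receptors and the ERK pathway, 19 were higher and 6 lower in shUHRF1 PMA (median 0.67). Among them the feedback inhibitors of ERK rose in 10 of 10 cases (median 3.27). DUSP6, a phosphatase that takes the activating phosphates off ERK, was at 1429.7 and 1134 CPM in PMA against 23.2 and 19.2 CPM in DMSO (5.92 ± 0.22, adjusted p = 7.3e-10). DUSP1 and DUSP4, nuclear phosphatases of the same family, rose by 6.61 ± 0.25 and 4.22 ± 0.16, and the receptor signaling inhibitor SPRY2 by 5.48 ± 0.44. Most genes of the receptors themselves were not called. Of 10 tested genes for protein kinases C and D, 2 rose, 2 fell and 6 were not called. Of 7 RAS exchange factors and chimaerins, 1 rose, 2 fell and 4 were not called. Among all tested genes 29.4% were higher and 25.5% lower. Of the called protein kinase C genes, PRKCA rose by 1.38 ± 0.17 and PRKCQ fell by 1.68 ± 0.24. Of the called exchange factors, RASGRP3 rose by 5.97 ± 0.33 and RASGRP2 fell by 4.33 ± 0.25. Of the cascade itself 4 of 6 rose and none fell, MAP2K1 (MEK1) by 1.96 ± 0.17 and MAPK3 (ERK1) by 1.57 ± 0.21.

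Transcription factors downstream of ERK were higher after 48 h. Of 23 tested AP-1, EGR and MAF genes 18 rose and 3 fell (median 3.10), with all 4 FOS family and all 6 EGR and NAB members among those that rose. EGR2 was at 187 and 224 CPM in PMA against 0 and 0.0476 CPM in DMSO (ratio 8492, counting interval 1524 to 335450, 1 DMSO count, adjusted p = 3.1e-10). FOS (141 and 139 CPM in PMA, 15.2 and 16.3 CPM in DMSO), JUN (190.1 and 170.2 CPM in PMA, 12.5 and 10.6 CPM in DMSO) and ATF3 (257 and 234 CPM in PMA, 1.26 and 0.808 CPM in DMSO) changed by 3.15 ± 0.22, 3.96 ± 0.22 and 7.89 ± 0.24. The PMA and DMSO libraries did not overlap for any of these 4 genes. BATF and BATF3 fell, as did JDP2 (−0.53 ± 0.21), whose call was lost when any 1 of the 4 libraries was left out (−0.60 to −0.44).

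Among 26 tested myeloid lineage factors 14 were higher and 5 lower (median 0.92), or 8 lower with upper-quartile factors. NR1H3, the oxysterol receptor LXR alpha, was at 109 and 131 CPM in PMA against 10.3 and 10.3 CPM in DMSO (3.54 ± 0.20), and RUNX3, SPI1 (PU.1) and CEBPB rose by 2.12 ± 0.15, 1.41 ± 0.19 and 5.17 ± 0.73. GFI1, a transcriptional repressor acting in granulocytes and progenitors, was at 14.2 and 13.2 CPM in PMA against 170.1 and 147 CPM in DMSO (−3.53 ± 0.15, adjusted p = 1.5e-09). CEBPA, a granulocyte and monocyte progenitor factor, and IRF8, a monocyte and dendritic cell factor, fell by 2.53 ± 0.33 and 2.48 ± 0.27. Factors of the same family thus changed in opposite directions, CEBPB up and CEBPA down. SPIB, a relative of SPI1 with roles in B and plasmacytoid dendritic cells, fell by 3.48 ± 0.54 (0.962 and 0.487 CPM in PMA, 9.20 and 7.37 CPM in DMSO).

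**Figure D3:**
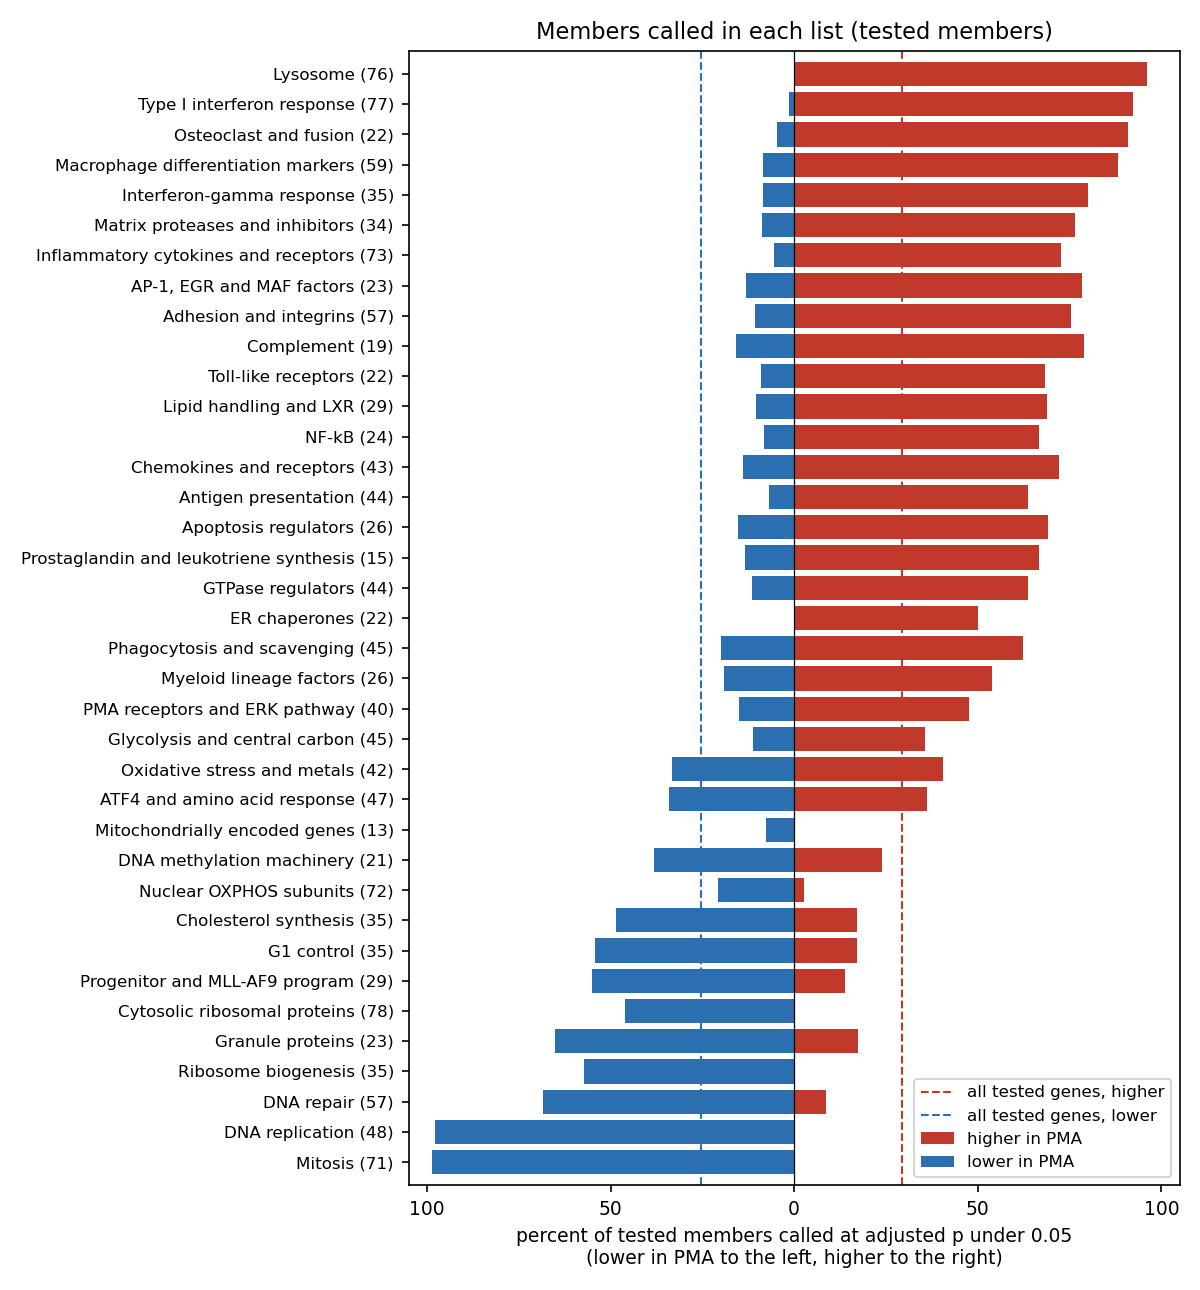
For each of 37 gene lists (tested members in brackets), bars show the percent of members called at an adjusted p under 0.05, higher or lower in PMA, and dashed lines show the same for all tested genes (29.4% higher and 25.5% lower). The lysosome list has 73 of 76 members higher and the mitosis list 70 of 71 lower.

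Macrophage markers rose almost as a whole. Of 59 tested differentiation markers 52 were higher and 5 lower (88.1% and 8.47%, median 3.60, or 3.49 with genes lacking a count at their bound), beside 29.4% and 25.5% of all genes. CSF1R, whose ligand CSF1 is a macrophage growth factor, was at 1136 and 1259.6 CPM in PMA against 18.4 and 21.1 CPM in DMSO (5.92 ± 0.21, adjusted p = 4.8e-10). LPL, lipoprotein lipase, was at 1410.2 and 1399.9 CPM in PMA against 14.4 and 15.1 CPM in DMSO (6.57 ± 0.21), and ADGRE2, an adhesion receptor of myeloid cells, at 113 and 123 CPM in PMA against 6.73 and 6.33 CPM in DMSO (4.18 ± 0.14). The surface markers CD14 (19.0 and 10.2 CPM in PMA, 1.31 and 1.09 CPM in DMSO) and ITGAM, which encodes CD11b (175 and 237 CPM in PMA, 17.2 and 26.0 CPM in DMSO), rose by 3.60 ± 0.44 and 3.25 ± 0.25. The PMA and DMSO libraries did not overlap for any of these 5 genes. FCGR2A, CD4, LYZ and PLTP fell, as did FCGR1A, whose call was lost without shUHRF1 DMSO replicate 1 or shUHRF1 PMA replicate 2 (−2.23 ± 0.56, or −2.89 to −1.49 over the 4 fits without 1 library). MRC1, the mannose receptor, was too low to be tested.

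Of 45 tested phagocytosis and scavenging genes 28 rose and 9 fell (median 1.79). The hemoglobin scavenger receptor CD163 was at 86.6 and 90.0 CPM in PMA against 0.0484 and 0.0476 CPM in DMSO (ratio 1836, counting interval 508 to 15172, 2 DMSO counts), and MSR1, the class A scavenger receptor, at 486 and 523 CPM in PMA against 0 and 0.285 CPM in DMSO (11.71 ± 0.67). MERTK, a receptor for apoptotic cells, rose by 7.13 ± 0.36 and the phagosomal metal transporter SLC11A1 by 6.54 ± 0.23. GAS6, a bridging ligand of MERTK, went the other way, at 19.98 and 21.1 CPM in PMA against 189 and 234 CPM in DMSO (−3.36 ± 0.21). Subunits of the NADPH oxidase rose in 4 of 7 cases and fell in 1, with NCF1, which has near-identical pseudogenes and is uncertain, at 3.77 ± 0.26.

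Lysosomal genes gave the highest share of risen members of the 37 lists, with 73 of 76 higher and none lower (96.1%, median 1.70), 16 of 16 subunits of the proton pump and 14 of 14 membrane proteins among them. CTSL, the protease cathepsin L, was at 9819 and 7435 CPM in PMA against 72.8 and 73.8 CPM in DMSO (6.88 ± 0.30, adjusted p = 1.7e-09). SCARB2, a lysosomal membrane receptor, was at 1599.5 and 1307 CPM in PMA against 91.7 and 87.5 CPM in DMSO (4.02 ± 0.21), and the cholesterol transporter NPC1 rose by 3.16 ± 0.16. TFEB, TFE3 and MITF, factors that switch on lysosomal genes, rose by 1.42 ± 0.18, 1.14 ± 0.13 and 3.19 ± 0.23. With upper-quartile factors, DESeq2 or the replicate block, 1 member was called lower. Osteoclast and fusion genes, some of them shared with this list, rose in 20 of 22 cases (median 2.88), among them the acid phosphatase ACP5 at 24.9 and 20.3 CPM in PMA against 0.0484 and 0.0476 CPM in DMSO (ratio 476, counting interval 131 to 3938, 2 DMSO counts). CA2, a carbonic anhydrase that osteoclasts use to make acid, was the member that fell, by 3.10 ± 0.24.

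Lipid handling and cholesterol synthesis diverged. Of 29 tested lipid handling and LXR target genes 20 rose and 3 fell (7 with upper-quartile factors, median 1.63). PLIN2, which coats lipid droplets, was at 2022 and 1799.9 CPM in PMA against 76.7 and 87.4 CPM in DMSO (4.54 ± 0.20), and the LXR targets APOE and ABCA1 rose by 6.83 ± 0.42 and 6.97 ± 0.55. Of 35 genes of sterol and fatty acid synthesis 6 rose and 17 fell (median −0.53). The falls included DHCR7, a late enzyme of cholesterol synthesis (−2.04 ± 0.19), the fatty acid desaturase FADS2 (−3.80 ± 0.42) and ACAT2, which makes acetoacetyl-CoA, at 20.5 and 14.5 CPM in PMA against 95.0 and 80.7 CPM in DMSO (−2.33 ± 0.24). SQLE, the squalene epoxidase, and INSIG1, a brake on the sterol sensor, were among those that rose, by 4.03 ± 0.25 and 3.14 ± 0.23. Without shUHRF1 PMA replicate 1, 11 members were called lower instead of 17.

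Secreted proteases and adhesion genes rose in most cases. Of 34 matrix proteases and inhibitors 26 were higher and 3 lower (median 3.97), with 12 of 15 metalloproteinases higher. MMP19 was at 773 and 759 CPM in PMA against 2.76 and 1.76 CPM in DMSO (8.40 ± 0.25, adjusted p = 2.8e-10), MMP8, the neutrophil collagenase, at 28.1 and 28.7 CPM in PMA with no DMSO count (at least 395-fold), and the inhibitor TIMP3 at 1647 and 1367 CPM in PMA against 84.5 and 96.6 CPM in DMSO (4.06 ± 0.26). Of 57 adhesion genes 43 rose and 6 fell (median 2.399), including 6 of 6 integrin beta chains that rose. ITGB3 was at 117 and 147 CPM in PMA against 0.0484 and 0.0951 CPM in DMSO (ratio 1814, counting interval 620.4 to 8802, 3 DMSO counts), and ITGAX, which encodes CD11c, at 576 and 737 CPM in PMA against 43.7 and 37.6 CPM in DMSO (4.01 ± 0.21). ITGA4, the alpha chain of VLA-4, fell by 1.42 ± 0.16. GTPase regulators, which shape the cytoskeleton and G protein signaling, rose in 28 of 44 cases and fell in 5 (9 with upper-quartile factors). These are 63.6% and 11.4% in the main fit, beside 29.4% and 25.5% of all genes. RGS2 rose by 4.72 ± 0.15 and RGS16 by 5.600 ± 0.22.

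Chemokines gave 31 risen and 6 fallen of 43 tested ligands and receptors (median 4.76). CXCL8 (interleukin 8) was at 4263 and 2957 CPM in PMA against 1.60 and 1.57 CPM in DMSO (11.15 ± 0.50), CCL2 at 1239 and 719 CPM in PMA against 0.920 and 1.38 CPM in DMSO (9.72 ± 0.43) and CXCL1 at 147 and 122 CPM in PMA against 0.290 and 0.285 CPM in DMSO (8.83 ± 0.32). C5AR1, the receptor for complement fragment C5a, was at 596 and 626 CPM in PMA against 0.0968 and 0.0951 CPM in DMSO, 4 DMSO counts in all. CCR2, the receptor for CCL2 that marks circulating monocytes, fell to 2.26 and 2.50 CPM in PMA, against 68.5 and 66.5 CPM in DMSO (−4.82 ± 0.17, adjusted p = 3.9e-10). CCL2 and its receptor thus moved in opposite directions, without overlap between PMA and DMSO libraries. The receptors CX3CR1 and CXCR2 fell as well, by 3.08 ± 0.41 and 2.99 ± 0.34.

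Of 73 tested inflammatory cytokines and receptors 53 rose and 4 fell (median 2.53, or 1.81 with genes lacking a count at their bound), and 7 fell with the replicate block. IL1RN, the natural antagonist of interleukin 1, was at 3782 and 3282 CPM in PMA against 15.8 and 17.2 CPM in DMSO (7.74 ± 0.32), and TNF at 8.15 and 10.4 CPM in PMA against 1.02 and 0.618 CPM in DMSO (3.49 ± 0.41, adjusted p = 1.3e-05). Both rose beside IL1B without overlap of the groups. IL6 was too low to be tested, and IL10 had 4 counts in PMA and none in DMSO and was not called. CSF1, the ligand of CSF1R, and TGFB1 rose by 7.89 ± 0.36 and 4.96 ± 0.30.

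In the NF-kB list 16 of 24 rose and 2 fell (66.7% and 8.33%, median 0.73), beside 29.4% and 25.5% of all genes. NFKBIA, the inhibitor that NF-kB induces, rose by 1.84 ± 0.16, TRAF1 by 3.12 ± 0.24 and the subunit RELB by 1.13 ± 0.20. Toll-like receptors and adaptors gave 15 risen and 2 fallen of 22 (68.2% and 9.09%, median 1.57). TLR2 (209 and 179 CPM in PMA, 42.8 and 39.7 CPM in DMSO) and the adaptor MYD88 (272 and 278 CPM in PMA, 29.5 and 36.0 CPM in DMSO) rose by 2.24 ± 0.18 and 3.07 ± 0.22. In each list 1 fall was lost without shUHRF1 DMSO replicate 1 or 2, and also without shUHRF1 PMA replicate 1 for NF-kB and replicate 2 for the Toll-like receptors, which left 1.

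Of 19 complement genes 15 rose and 3 fell (median 3.17, 1 fall without shUHRF1 DMSO replicate 2). C3, the central component, was at 589 and 865 CPM in PMA against 49.7 and 63.8 CPM in DMSO (3.68 ± 0.43), and C2 and the C3a receptor C3AR1 rose by 3.39 ± 0.24 and 5.04 ± 0.19. Genes of prostaglandin and leukotriene synthesis rose in 10 of 15 cases and fell in 2 (1 without shUHRF1 DMSO replicate 1 or shUHRF1 PMA replicate 2), with the cyclooxygenases PTGS1 and PTGS2 higher by 3.93 ± 0.22 and 5.28 ± 0.30. Antigen presentation genes gave 28 risen and 3 fallen of 44 (median 1.12), with 18 risen without shUHRF1 PMA replicate 1 and 5 fallen with upper-quartile factors. HLA-E, a class I molecule, was at 839 and 745 CPM in PMA against 70.5 and 80.7 CPM in DMSO (3.39 ± 0.20). Of the 15 tested MHC class II members of the list 6 rose and 2 fell (median 0.39). CIITA, the master regulator of MHC class II, was 1 of the 2 that fell. It was at 0.849 and 0.556 CPM in PMA against 3.29 and 3.85 CPM in DMSO (−2.32 ± 0.38).

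Interferon-induced genes rose nearly as a whole too. Of 77 tested type I interferon response genes 71 were higher and 1 lower in shUHRF1 PMA (92.2% and 1.30%, median 2.95), beside 29.4% and 25.5% of all genes. RSAD2 (viperin), an antiviral enzyme, was at 695 and 636 CPM in PMA against 4.99 and 5.18 CPM in DMSO (7.03 ± 0.23, adjusted p = 3.1e-10). ISG20, an exonuclease, was at 52.6 and 50.1 CPM in PMA against 1.26 and 1.05 CPM in DMSO (5.47 ± 0.19), and the antiviral GTPase MX2 rose by 4.73 ± 0.19. For these genes every PMA library stood above every DMSO library. The RNA sensor RIGI and the oligoadenylate synthetase OAS3 rose by 4.65 ± 0.19 and 3.81 ± 0.18, and the factors IRF7 and IRF2 by 2.90 ± 0.16 and 2.82 ± 0.16. IFNB1, the interferon beta gene, was at 0.906 and 0.417 CPM in PMA against 0.242 and 0.190 CPM in DMSO and was not called (adjusted p = 0.071). APOBEC3B, a cytidine deaminase, was the member that fell, by 3.15 ± 0.33, and with upper-quartile factors 3 members were lower. The interferon-gamma list gave 28 risen and 3 fallen of 35 (median 2.50), with the guanylate-binding protein genes GBP1 (115 and 112 CPM in PMA, 0.145 and 0.333 CPM in DMSO) and GBP2 (42.3 and 36.7 CPM in PMA, 1.26 and 0.951 CPM in DMSO) among those that rose.

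Cell cycle genes fell nearly without exception. Of 71 tested mitosis genes 70 were lower and none higher (98.6%, median −3.83), and of 48 DNA replication genes 47 were lower and none higher (97.9%, median −3.20). CDC20 (ENSG00000117399, chr1:43358981-43363203, plus strand), which activates the anaphase-promoting complex, was at 13.3 and 11.9 CPM in PMA against 429 and 411 CPM in DMSO (−5.06 ± 0.19, adjusted p = 6.6e-10). ZWINT, a kinetochore protein, was at 7.13 and 7.99 CPM in PMA against 169.8 and 182 CPM in DMSO (−4.54 ± 0.15) and CCNB1, cyclin B1, at 10.3 and 8.83 CPM in PMA against 157 and 169 CPM in DMSO (−4.09 ± 0.15). In each of these genes both PMA libraries held a small part of the DMSO level. The origin-licensing factor CDC6 (3.62 and 3.96 CPM in PMA, 62.5 and 62.6 CPM in DMSO), the sliding clamp PCNA (19.6 and 15.2 CPM in PMA, 141 and 130.1 CPM in DMSO) and RRM2, which makes deoxynucleotides (11.7 and 12.9 CPM in PMA, 94.2 and 114 CPM in DMSO), fell by 4.04 ± 0.17, 2.96 ± 0.18 and 3.08 ± 0.17. ECT2, a cytokinesis factor, was the mitosis gene not called: its level was 6.51 and 9.73 CPM in PMA against 9.29 and 31.1 CPM in DMSO (adjusted p = 0.091), with overlapping groups, and it was called lower with the replicate block, with DESeq2 and without shUHRF1 DMSO replicate 1 (−1.94), among other settings. Of 51 mitosis promoters 68.63% held the CHR and 76.47% CCAAT, and of 31 DNA replication promoters 29.03% held the E2F motif and 3.23% the CHR, beside the shares of all promoters given above.

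G1 regulators moved both ways, with 17.1% higher and 54.3% lower, beside 29.4% and 25.5% of all genes. Of 35 tested 6 rose and 19 fell (median −0.94, 3 risen without shUHRF1 DMSO replicate 1). CDKN1A, the CDK inhibitor p21, was at 993 and 1285 CPM in PMA against 9.29 and 12.7 CPM in DMSO (6.69 ± 0.33, adjusted p = 5.5e-09), and CCND1, cyclin D1, at 296 and 328 CPM in PMA against 1.74 and 2.14 CPM in DMSO (7.32 ± 0.22). FOXM1 and MYBL2, which drive late cell cycle genes, changed by −4.50 ± 0.22 and −4.67 ± 0.24, E2F1 fell by 4.22 ± 0.28 and CCNE1, cyclin E1, by 2.47 ± 0.20. A CDK inhibitor and a D cyclin thus rose in the same libraries in which the E2F1 and FOXM1 transcripts fell.

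DNA repair genes fell in 39 of 57 cases and rose in 5 (median −1.32, 3 risen without shUHRF1 PMA replicate 2). The falls held 13 of 14 homologous recombination genes and 11 of 11 Fanconi anemia genes. RAD54L, a recombination motor, was at 1.70 and 2.22 CPM in PMA against 56.8 and 50.6 CPM in DMSO (−4.78 ± 0.19), the helicase BLM at 4.13 and 4.24 CPM in PMA against 74.8 and 61.4 CPM in DMSO (−4.02 ± 0.18) and FANCD2, the central Fanconi anemia protein, at 5.09 and 6.95 CPM in PMA against 94.2 and 83.5 CPM in DMSO (−3.89 ± 0.23). None of the 3 had overlapping groups. Excision and mismatch repair was mixed, with 11 of 23 lower and 4 higher (47.8% and 17.4%), beside 25.5% and 29.4% of all genes. UNG and MSH6 fell by 1.64 ± 0.16 and 1.64 ± 0.13.

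The DNA methylation machinery changed in both directions. Of 21 tested members 5 rose and 8 fell (median −0.23, or −0.09 and −0.38 without shUHRF1 PMA replicate 1 and 2), or 23.8% and 38.1% beside 29.4% and 25.5% of all genes. With the replicate block 8 rose and 10 fell, and 35.4% and 32.5% of all genes did. Beside UHRF1, CDCA7, which recruits HELLS to chromatin, was at 1.30 and 1.95 CPM in PMA against 66.8 and 86.6 CPM in DMSO (−5.57 ± 0.32, adjusted p = 1.9e-08), and the remodeler HELLS at 5.15 and 4.03 CPM in PMA against 44.4 and 39.5 CPM in DMSO (−3.18 ± 0.22). DNMT1, the maintenance methyltransferase, was at 71.1 and 109.6 CPM in PMA against 123 and 159 CPM in DMSO, a difference that did not pass (−0.64 ± 0.30, adjusted p = 0.086) although the groups did not overlap, and it was called lower with the replicate block or upper-quartile factors, in a fit with no low-count filter, and without shUHRF1 PMA replicate 2 (−0.98). The de novo enzymes moved apart: DNMT3A rose by 1.30 ± 0.18 (39.5 and 41.4 CPM in PMA, 19.1 and 13.7 CPM in DMSO) and DNMT3B fell by 2.68 ± 0.22 (1.53 and 1.74 CPM in PMA, 9.58 and 11.4 CPM in DMSO). TET1, which oxidizes methylcytosine, fell by 4.16 ± 0.80 with 4 counts in PMA. Readers of methylated DNA rose in 3 of 7 cases, ZBTB38 by 2.89 ± 0.53.

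Genes of the leukemic progenitor state fell more often than they rose, with 16 of 29 lower and 4 higher (median −0.57, 2 higher without shUHRF1 DMSO replicate 1 or with upper-quartile factors). In the main fit these are 55.2% lower and 13.8% higher, beside 25.5% and 29.4% of all genes. MYB, a factor of proliferating progenitors, was at 10.9 and 15.2 CPM in PMA against 264 and 276 CPM in DMSO (−4.37 ± 0.26, adjusted p = 2.4e-08). FLT3, a cytokine receptor of progenitors, and HOXA10, a homeobox gene, fell by 1.99 ± 0.22 and 1.90 ± 0.17. DOT1L, a histone methyltransferase that MLL fusion proteins recruit, was among those that rose, at 342 and 420.2 CPM in PMA against 52.1 and 54.3 CPM in DMSO (2.84 ± 0.17). SYTL1, a Rab27-binding protein, was at 0.113 and 0.209 CPM in PMA against 9.34 and 8.85 CPM in DMSO (−5.80 ± 0.55). Granule proteins gave 15 lower and 4 higher of 23 (median −1.70), with the serine proteases ELANE (165 and 69.1 CPM in PMA, 1452 and 762 CPM in DMSO) and PRTN3 lower by 3.24 ± 0.65 and 3.01 ± 0.62 and ANXA1, which also acts in the resolution of inflammation, higher by 4.19 ± 0.26.

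Iron, metal and stress genes moved both ways. Of 42 tested 17 rose and 14 fell (median 0.27, or −0.04 with upper-quartile factors and 0.06 without shUHRF1 DMSO replicate 1). These are 40.5% and 33.3%, beside 29.4% and 25.5% of all genes. HMOX1, heme oxygenase 1, was at 1295 and 883 CPM in PMA against 4.16 and 2.85 CPM in DMSO (8.28 ± 0.43, adjusted p = 7.6e-09), and FTH1 rose by 5.40 ± 0.29. HAMP, the iron hormone hepcidin, was at 51.7 and 30.9 CPM in PMA with no DMSO count (at least 588-fold), while SLC40A1, ferroportin, the exporter that hepcidin acts on, fell by 3.70 ± 0.56. Of 10 genes for metallothioneins and zinc handling 8 fell, MT1G among them at 1.02 and 0.765 CPM in PMA against 118 and 52.5 CPM in DMSO (−6.55 ± 0.68).

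In the ATF4 and amino acid list 17 of 47 rose and 16 fell (median 0.01, or −0.30 with upper-quartile factors), which is 36.2% and 34.0% beside 29.4% and 25.5% of all genes. The phosphatase subunit PPP1R15A and the cystine transporter SLC7A11 rose by 4.28 ± 0.20 and 3.38 ± 0.25, and PHGDH and PYCR1, enzymes of serine and proline synthesis, fell by 2.54 ± 0.26 and 1.88 ± 0.19. Endoplasmic reticulum chaperones gave 11 of 22 higher and none lower (median 0.64, 7 higher without shUHRF1 DMSO replicate 1, and 1 lower with the replicate block), with DNAJB9 at 2.21 ± 0.27 and HERPUD1 at 1.40 ± 0.15. Among apoptosis regulators 18 of 26 rose and 4 fell (median 0.99). BCL2A1, an anti-apoptotic BCL2 relative, was at 465 and 305 CPM in PMA against 0.920 and 0.285 CPM in DMSO (9.31 ± 0.46), and MCL1 and CFLAR rose by 2.52 ± 0.17 and 2.25 ± 0.17. Survival genes rose in 8 of 9 cases, with BCL2, which fell by 1.48 ± 0.16, the exception.

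In central metabolism and translation the changes were smaller, and their number depended on the fit. Of 45 genes of glycolysis and the citric acid cycle 16 rose and 5 fell (median 0.28, or −0.03 with upper-quartile factors, and 0.05 and 0.46 without shUHRF1 DMSO replicate 1 and 2), while 10 rose without shUHRF1 DMSO replicate 1 and 10 fell with the replicate block. The shares, 35.6% higher and 11.1% lower, stand beside 29.4% and 25.5% of all genes, and with the block 32.5% of all genes were lower. HK2, the inducible hexokinase, was at 247 and 243 CPM in PMA against 14.8 and 17.7 CPM in DMSO (3.91 ± 0.17, adjusted p = 1.5e-09). PFKFB4 rose by 5.58 ± 0.21, and the isocitrate dehydrogenases IDH1 and IDH2 fell by 0.97 ± 0.12 and 1.48 ± 0.19. Ribosome biogenesis genes gave 20 of 35 lower and none higher (median −0.66, 1 higher with the replicate block), with the snoRNP protein NOP56 at 63.2 and 53.7 CPM in PMA against 175 and 143 CPM in DMSO (−1.44 ± 0.16).

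Cytosolic ribosomal proteins gave 36 of 78 lower and none higher, 46.2% lower beside 25.5% of all genes. The median was −0.82, or −0.47 without shUHRF1 DMSO replicate 1, and 76 were lower with the replicate block. That count was 8 without shUHRF1 DMSO replicate 1, 23 without shUHRF1 PMA replicate 1 and 9 without shUHRF1 PMA replicate 2. RPS2 was at 875 and 918 CPM in PMA against 2243 and 2232 CPM in DMSO (−1.32 ± 0.20, adjusted p = 0.00013). Nuclear genes of oxidative phosphorylation gave 15 of 72 lower and 2 higher (median −0.50). The share lower, 20.8%, stands beside 25.5% of all genes, and with the block 32.5% of all genes were lower. The median was −0.13 without shUHRF1 DMSO replicate 1, −0.17 and −0.85 without shUHRF1 PMA replicate 2 and 1, and −0.81 with upper-quartile factors. There were 48 lower with the block, 2 without shUHRF1 DMSO replicate 1 and 1 without shUHRF1 PMA replicate 2, and 1 higher without shUHRF1 DMSO replicate 2 or shUHRF1 PMA replicate 1. Of 13 mitochondrially encoded mRNAs MT-ATP8 alone was called, at 161 and 71.5 CPM in PMA against 708 and 285 CPM in DMSO (−2.09 ± 0.69, adjusted p = 0.021). With the block all 13 were lower, without shUHRF1 DMSO replicate 2 the count was 3, and without shUHRF1 DMSO replicate 1 or shUHRF1 PMA replicate 2 it was 0. These transcripts show the gap between the first and second replicates described for the libraries, whose part in the counts was not tested.

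The PMA response of shUHRF1 cells was then compared with that of shNC cells, a comparison between the labelled lines, since a lower UHRF1 mRNA was not called. Most calls were shared. Of the 3592 genes that rose in shUHRF1, 2869 also rose in shNC (79.9% of the shUHRF1 calls and 85.2% of the 3367 shNC calls), and of 3104 that fell, 2461 also fell in shNC (79.3% of the shUHRF1 calls and 75.1% of the 3276 shNC calls). Without the limit on size, 28.4% of genes were higher and 26.0% lower in shNC. Most calls in 1 line alone came without a called difference of the response. Of 723 genes called higher in shUHRF1 and not in shNC 23 had one, and of 643 called lower 5. Of 498 genes called higher in shNC and not in shUHRF1 5 had one, and of 815 called lower 24. Over all 16503 tested genes 122 differences were positive and 18 negative (0.739% and 0.109%). Mitosis genes had a median change of −3.83 in shUHRF1 and −4.27 in shNC, and lysosomal genes of 1.70 in shUHRF1 and 1.70 in shNC.

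**Figure D4:**
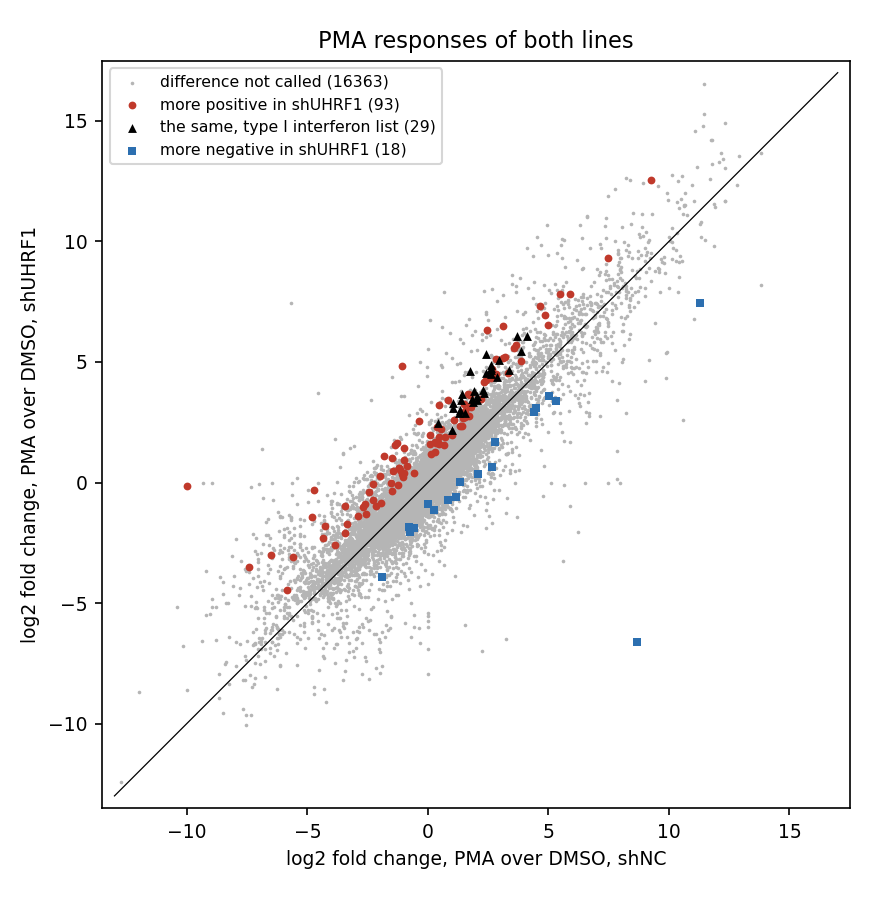
Log2 fold change after PMA in shUHRF1 (y axis) against that in shNC (x axis) for 16503 genes, with the line of equal change. Red and black points are the 122 genes with a more positive response in shUHRF1, black triangles being the 29 of the type I interferon list, and blue points are the 18 with a more negative response.

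The difference of the responses, shUHRF1 minus shNC, was called for 140 genes at an adjusted p under 0.05, 122 positive (0.739%) and 18 negative (0.109%). With the replicate block 993 (6.02%) and 407 (2.47%) were called, which included all 140, and 1970 genes had an unadjusted p under 0.05. The count rested on single libraries. Positive calls numbered 36 and 98 without shUHRF1 DMSO replicate 1 and 2, 38 and 66 without shUHRF1 PMA replicate 1 and 2, 49 and 52 without shNC DMSO replicate 1 and 2, and 20 and 7 without shNC PMA replicate 1 and 2. Negative calls numbered 6 and 10 without shUHRF1 DMSO replicate 1 and 2, 1 and 6 without shUHRF1 PMA replicate 1 and 2, 4 and 7 without shNC DMSO replicate 1 and 2, and 2 and 0 without shNC PMA replicate 1 and 2. In a fit of the 8 compared libraries alone, 1 gene was called.

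Of the 122 positive differences, 48 were lower in shUHRF1 than in shNC in DMSO only, 61 were higher in shUHRF1 than in shNC in PMA only, 2 were both and 11 neither. Over all genes, 1.15% were lower in shUHRF1 in DMSO, and 2.04% higher and 1.65% lower in shUHRF1 in PMA. With the replicate block the 189 genes lower in DMSO became 1134, and the 336 higher and 273 lower in PMA became 1378 and 1136. The 189 genes lower in DMSO became 66 without shUHRF1 DMSO replicate 1, and 88 and 110 without shNC DMSO replicate 1 and 2, and the 336 higher and 273 lower in PMA became 53 to 112 and 57 to 73 when 1 PMA library of either line was left out.

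Type I interferon response genes made up 29 of the 122 positive differences. Their median response was 2.95 in shUHRF1 and 1.51 in shNC, and 74 of 77 differences were above 0 (median 1.20). In DMSO 46 of the 77 were lower in shUHRF1 than in shNC (median −1.27), whereas in PMA 3 were lower and 1 higher (median −0.11). The 46 became 30 without shUHRF1 DMSO replicate 1, and in PMA 12 were lower and 6 higher with the replicate block and none was lower when 1 PMA library of either line was left out. The 29 calls became 57 with the block, 15 and 21 without shUHRF1 DMSO replicate 1 and 2, 17 and 22 without shUHRF1 PMA replicate 1 and 2, 20 and 17 without shNC DMSO replicate 1 and 2, 12 and 4 without shNC PMA replicate 1 and 2, and 1 in the fit of 8 libraries. The median difference was between 1.11 and 1.26 in these settings.

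IFI44L, an interferon-induced gene, was at 237 and 284 CPM in shUHRF1 PMA and 6.24 and 6.52 CPM in shUHRF1 DMSO, against 287 and 309 CPM in shNC PMA and 51.8 and 61.2 CPM in shNC DMSO. Its response was 5.35 ± 0.36 in shUHRF1 and 2.398 ± 0.31 in shNC, a difference of 2.95 ± 0.44 (adjusted p = 0.011, edgeR quasi-likelihood test). IFI44 was at 332 and 285 CPM in shUHRF1 PMA and 12.6 and 12.03 CPM in shUHRF1 DMSO, against 232 and 210.1 CPM in shNC PMA and 76.9 and 53.6 CPM in shNC DMSO (difference 2.88 ± 0.27). In both genes the DMSO libraries of the lines did not overlap, with shUHRF1 the lower. MX2 was at 391 and 411 CPM in shUHRF1 PMA and 16.5 and 13.6 CPM in shUHRF1 DMSO, against 431 and 432 CPM in shNC PMA and 76.0 and 65.5 CPM in shNC DMSO (difference 2.13 ± 0.23). IFIT1, which binds viral RNA caps, OAS3 and EPSTI1 gave differences of 2.39 ± 0.31, 1.90 ± 0.23 and 2.16 ± 0.26. For IFI44, MX2 and EPSTI1 the adjusted p of the difference reached 0.0665 over the 14 alternative settings, so none of these calls held throughout. The calls for IFI44, MX2 and EPSTI1 held in all 8 fits without 1 library. The call for IFI44L was lost without shUHRF1 DMSO replicate 1 (2.92) and without shNC PMA replicate 1 (2.90) or 2 (3.01), and those for IFIT1 (2.31) and OAS3 (1.88) without shNC PMA replicate 2.

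**Figure D5:**
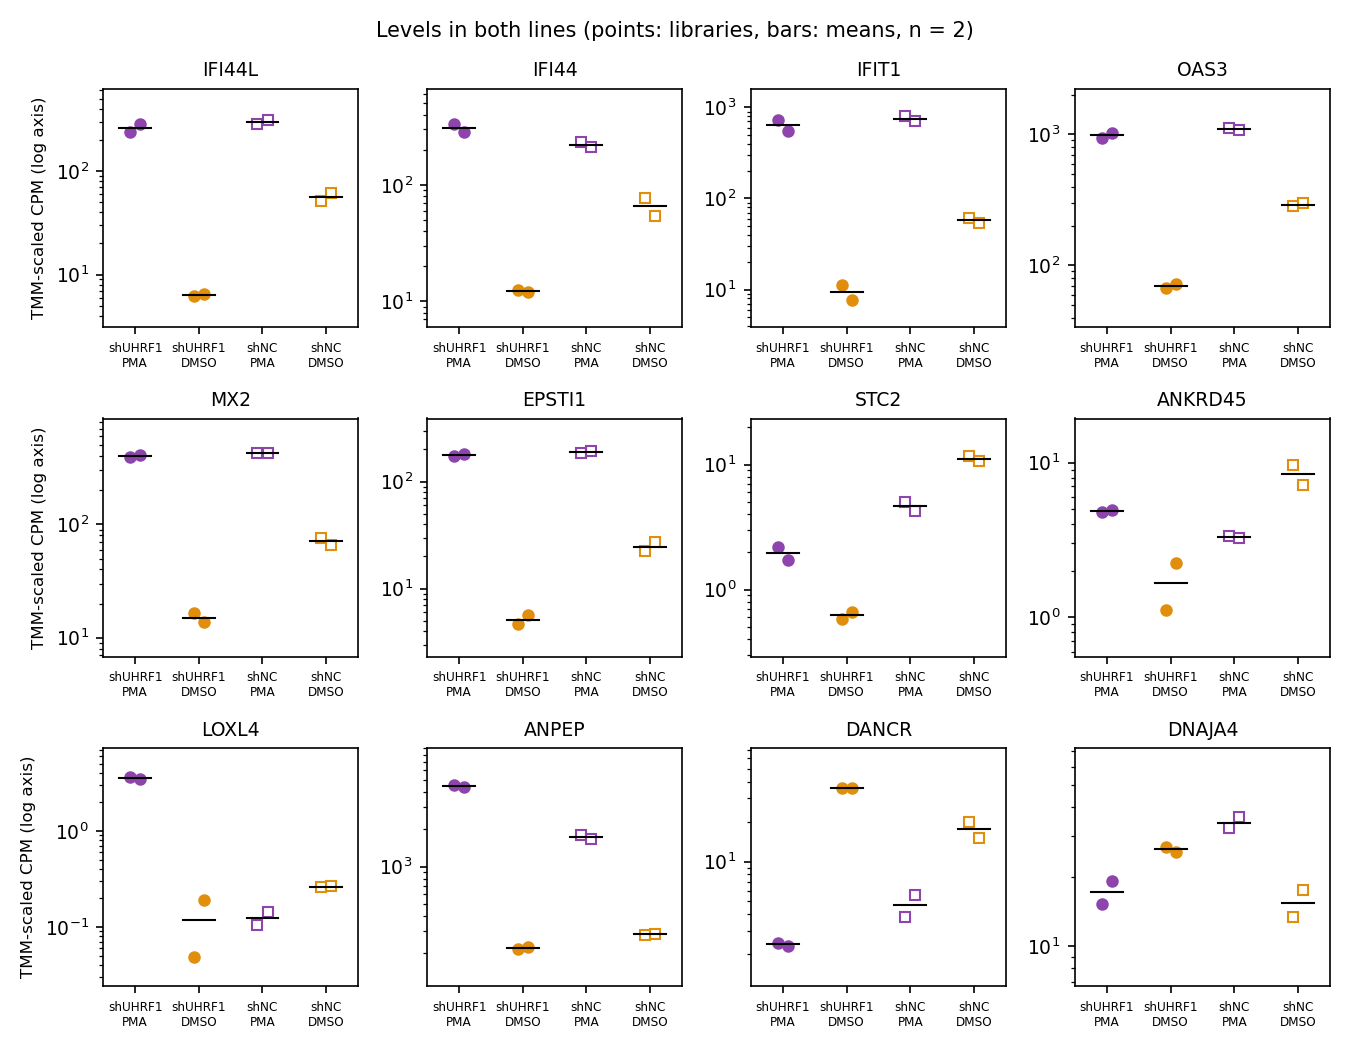
Levels of 12 genes with a called difference of the PMA response (y axis, TMM-scaled CPM, log axis), with a point for each of 2 libraries of shUHRF1 PMA and shUHRF1 DMSO (filled) and shNC PMA and shNC DMSO (open), and bars for the means. In the 6 interferon-induced genes the shUHRF1 DMSO libraries lie below the shNC DMSO libraries, while the other 6 genes differ in DMSO, in PMA or in both.

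A few genes went in opposite directions in the lines. Of 5 called higher in 1 line and lower in the other with the limit, 3 were higher after PMA in shUHRF1: STC2, ANKRD45 and SERPINB2. STC2, a secreted glycoprotein, was at 2.21 and 1.74 CPM in shUHRF1 PMA and 0.581 and 0.666 CPM in shUHRF1 DMSO, against 5.05 and 4.26 CPM in shNC PMA and 11.7 and 10.6 CPM in shNC DMSO (difference 2.92 ± 0.34, adjusted p = 0.0055). Its level was thus lower in shUHRF1 than in shNC under both treatments, and the call held in all 8 fits without 1 library. Over the 14 alternative settings the adjusted p of the STC2 difference reached 0.0665, past the threshold. ANKRD45 was at 4.81 and 4.94 CPM in shUHRF1 PMA and 1.11 and 2.24 CPM in shUHRF1 DMSO, against 3.36 and 3.25 CPM in shNC PMA and 9.63 and 7.18 CPM in shNC DMSO (difference 2.88 ± 0.44), and its call was lost without shNC PMA replicate 1 (2.90) or 2 (2.86). SERPINB2, an inhibitor of plasminogen activators in macrophages, rose by 1.11 ± 0.42 in shUHRF1 (20.7 and 23.8 CPM in PMA, 6.82 and 13.8 CPM in DMSO) and changed by −1.84 ± 0.45 in shNC, and its rise in shUHRF1 was lost without shUHRF1 DMSO replicate 1 or shUHRF1 PMA replicate 1 or shUHRF1 PMA replicate 2 (0.69 to 1.72). The other members of the 5, ENSG00000267022 and a second gene carrying the symbol HERC3 (ENSG00000287542), had no count in shUHRF1 PMA. The fall of ENSG00000267022 was lost without shUHRF1 DMSO replicate 1, shUHRF1 PMA replicate 1 or shUHRF1 PMA replicate 2 (−6.69 to −6.24 over the 4 fits).

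LOXL4, a lysyl oxidase that cross-links collagen, was at 3.68 and 3.48 CPM in shUHRF1 PMA and 0.0484 and 0.190 CPM in shUHRF1 DMSO, against 0.105 and 0.144 CPM in shNC PMA and 0.263 and 0.266 CPM in shNC DMSO (difference 5.89 ± 0.92, adjusted p = 0.012), and responded in shUHRF1 without being called in shNC. Its call was lost without shNC DMSO replicate 1 (5.90) or 2 (5.89) and without shNC PMA replicate 1 (5.67) or 2 (6.10). ANPEP, the aminopeptidase CD13, was at 4520.4 and 4359 CPM in shUHRF1 PMA and 217 and 227 CPM in shUHRF1 DMSO, against 1808 and 1661 CPM in shNC PMA and 279.9 and 288 CPM in shNC DMSO (difference 1.71 ± 0.27). It rose in both lines, with the PMA libraries of shUHRF1 above those of shNC, and its call was lost without shUHRF1 DMSO replicate 1 (1.68), shUHRF1 PMA replicate 1 (1.69) and shNC PMA replicate 1 (1.77) or 2 (1.66).

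Among negative differences, DANCR, a long non-coding RNA, was at 2.43 and 2.29 CPM in shUHRF1 PMA and 35.9 and 36.0 CPM in shUHRF1 DMSO, against 3.84 and 5.56 CPM in shNC PMA and 19.99 and 14.9 CPM in shNC DMSO (difference −2.02 ± 0.31, adjusted p = 0.011). DNAJA4, a co-chaperone, was at 15.2 and 19.0 CPM in shUHRF1 PMA and 27.0 and 25.6 CPM in shUHRF1 DMSO, against 32.4 and 36.1 CPM in shNC PMA and 13.4 and 17.4 CPM in shNC DMSO (difference −1.77 ± 0.27), and PIM1, a survival kinase, gave a difference of −1.45 ± 0.22. DANCR fell further in shUHRF1 than in shNC. DNAJA4 was lower after PMA in shUHRF1, a call lost without shUHRF1 DMSO replicate 1 or shUHRF1 PMA replicate 1 (−0.78 to −0.46 over the 4 fits without 1 library), and changed by 1.15 ± 0.19 in shNC. The called differences of DANCR and DNAJA4 were lost without shUHRF1 PMA replicate 1 (−2.06 and −1.61) and shNC PMA replicate 2 (−1.73 and −1.69), and PIM1 without shUHRF1 PMA replicate 1 (−1.46), shNC DMSO replicate 2 (−1.39) and shNC PMA replicate 1 (−1.45) or 2 (−1.46).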

How the data were processed

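Poly(A) RNA of the 16 libraries was sequenced from stranded libraries (TruSeq Stranded mRNA), and the values used are the gene counts the authors deposited. Per the labels and the study's methods, reads were mapped to hg38 with STAR 2.4.0b and counted per gene with HTSeq 0.6.1p1, and Cufflinks 2.1.1 is also named. The annotation release is not given in the sources used here, and symbols were taken from GENCODE 44 (60357 of 60676 identifiers). Groups came from the column names, since the description of 12 of 16 sample records names another sample than its title, so a column was tied to a group and not to a record.

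Genes were filtered with filterByExpr (minimum count 10, minimum total 15). All 16 libraries in 8 groups were fitted with edgeR 4.0.16 (R 4.3.3, limma 3.58.1) by TMM scaling and the robust quasi-likelihood test, with p-values adjusted by the Benjamini-Hochberg method over 16503 genes. Calls use an adjusted p under 0.05, and overall counts also a change above 1 (log2). The difference of the responses is the interaction of line and treatment. The fit was tested on simulated counts. Genes without a count in a group were set against a limit of 3 counts summed over its libraries, and ratios with 1 to 3 counts carry an exact interval at the 95% level, both covering counting error only.

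Deviations of same-numbered libraries from their group means correlated in all 28 pairs of groups (0.22 to 0.51, and 0.32 for shUHRF1 PMA and DMSO). The main fit held no replicate block, so this shared part stayed in the spread behind its SE and p-values. Its common dispersion was 0.0439, against 0.0115 with the block. The replicate number as a block was therefore an alternative throughout. The other alternatives were DESeq2 1.42.0, upper-quartile factors, no filter on low counts, only the libraries compared, no mitochondrial genes, DEGES normalization in 3 rounds and leaving out each library.

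The members and gene lists were chosen with earlier results of these data known. Named genes were the targeted and marker genes of the study, the 15 largest rises and falls, up to 4 members of each list and up to 2 of each role by adjusted p, the 10 largest differences in each direction and the 10 most abundant genes after PMA, of which a part is printed. Named outside this rule, after their values were seen, were ABCA1, ANKRD45, ANPEP, APOBEC3B, BATF, BATF3, BCL2, C3, CA2, CD4, CEBPA, CEBPB, CENPA, CSF1, CX3CR1, CXCL8, E2F1, ECT2, ELANE, FCGR1A, FCGR2A, HAMP, IFI44, IFIT1, IFNB1, IL10, IRF8, ITGA4, JDP2, LYZ, MSR1, MT1G, PHGDH, PLTP, PRTN3, PYCR1, SERPINB2, SLC40A1, SPC25, SPI1, SPRY2, STC2, TFEB, TGFB1, ENSG00000267022 and the second HERC3 gene.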

Additional observations from a re-analysis of the deposited data

Results flagged for a closer look

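For 26 of the genes named, the PMA response in shUHRF1 differed from that in shNC by the edgeR quasi-likelihood test of the difference, and values are given for 25. The differences, shUHRF1 minus shNC on the log2 scale, were 2.95 for IFI44L, 2.88 for IFI44, 2.39 for IFIT1, 1.90 for OAS3, 2.13 for MX2 and 2.16 for EPSTI1, all interferon-induced. They were 2.92 for STC2, 2.88 for ANKRD45, 5.89 for LOXL4 and 1.71 for ANPEP, and −2.02 for DANCR, −1.77 for DNAJA4 and −1.45 for PIM1. The libraries on which a call of these 13 rested are given with each gene above. Levels in each library are printed there too, except for IFIT1, OAS3, EPSTI1 and PIM1.

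Among other genes named for their PMA response, the difference was 1.62 for ISG20, 1.36 for IRF7, 1.27 for RIGI and 2.05 for GBP2, which belong to the interferon response, 1.19 for C3AR1 and 3.30 for C5AR1, the receptors of complement fragments, and 3.52 for CXCR2, a chemokine receptor. It was 1.57 for SLC11A1, 1.98 for PFKFB4, 1.22 for PLIN2, 2.94 for SERPINB2 and −1.30 for DHCR7. Every call given with a value in this section was lost in some alternative setting. Each of the 8 libraries of the lines was left out in turn. The call of PFKFB4 held in every such fit, and those of ISG20 (1.61 and 1.64) and IRF7 (1.40 and 1.33) were lost without shNC PMA replicate 1 or 2. The calls of C5AR1 (3.15 to 3.44), PLIN2 (1.13 to 1.33), C3AR1 (1.09 to 1.31) and DHCR7 (−1.44 to −1.14) were lost without any 1 of the 8. That of RIGI (1.11 to 1.42) held only without shUHRF1 PMA replicate 1, that of CXCR2 (2.73 to 4.65) only without shUHRF1 DMSO replicate 2, and that of SLC11A1 (1.34 to 1.78) only without shNC DMSO replicate 2 or shUHRF1 PMA replicate 1. That of SERPINB2 (2.39 to 3.55) held only without shNC DMSO replicate 1 or shUHRF1 DMSO replicate 2, and that of GBP2 (1.78 to 2.26 where it was lost) only without shNC DMSO replicate 2, shNC PMA replicate 1 or shUHRF1 PMA replicate 2. The remaining one is the second gene with the symbol HERC3, whose fitted difference is no bound because it had no count in shUHRF1 PMA. The cause of these differences was not tested.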

How the results depend on the processing

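Genes that rose and fell after PMA in shUHRF1 numbered within 1.5 times the TMM counts in each setting tried, from 2823 to 3770 higher and from 2622 to 4243 lower. The count of differences between the lines did not hold: the 122 positive and 18 negative calls became 993 and 407 with the replicate block, 267 and 54 without a filter on low counts, 312 and 101 with DESeq2, and 1 and 0 with only the libraries compared. Leaving out 1 library gave 7 to 98 positive and 0 to 10 negative calls. Over 200 named genes no PMA response turned its direction, 8 changed their side of the threshold in at least 1 setting, and the replicate block changed the call of 2, DNMT1 and ECT2. Of 74 list counts 26 moved by over 1.5 times in some setting. The alternatives for single-gene differences and for the contrasts between lines within a treatment were added after seeing the data. With 2 libraries a group, depth of 14873941 counts or more left genes under about 0.2 CPM at the floor of 3 counts in a library. The cause of each change was not tested.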
